A study of Mus musculus with 2 samples.

Results

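Single-cell RNA-seq of sorted cranial neural crest cells was used to describe 10 genes of the extracellular matrix in the mouse face at E11.5. The genes were chosen by symbol from the 32285 genes of the count tables: Postn, Ogn, Lum, Dcn, Bgn, Fmod, Aspn, Sparc, Tnc and Fn1. The control library was a pool of 2 embryos with 1 floxed and 1 wild-type allele of each of Tfap2a and Tfap2b, and the mutant library a pool of 2 embryos with both alleles of both genes floxed. Embryos of both groups carried Wnt1:CRE and the mTmG reporter on both r26 alleles, so that cells with CRE activity were sorted by their membrane GFP, and CRE could remove 1 copy of each gene in the control cells too. Wnt1:CRE marks the neural crest and also part of the dorsal brain, and the cells came from heads separated from the trunk below the otic vesicle and the second pharyngeal arch. Each group was 1 library without replicates, and the intervals given are 95% counting intervals, which do not include differences between embryos, dissections or sorts.

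The matrix of embryonic mesenchyme is a scaffold that cells make, bind and remodel while the facial prominences grow. Small leucine-rich proteoglycans such as decorin, biglycan, lumican, fibromodulin and osteoglycin bind collagen and govern the assembly of its fibrils. Matricellular proteins such as periostin, SPARC and tenascin-C are secreted into the matrix without being its main load-bearing parts, and they tune how cells attach and respond to growth factors. Fibronectin is the early fibrillar scaffold on which neural crest cells migrate.

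After filtering, 5625 control and 5587 mutant cells were kept, with medians of 13478 and 12234 unique molecular identifiers (UMIs, which count captured transcript molecules) per cell. Clustering, which used none of the 10 genes, gave 3 classes. The mesenchyme had 3758 control and 2811 mutant cells and was higher than the rest in 6 of 6 mesenchyme markers. A glia-like class had 260 and 201 cells, and the remaining 1607 and 2575 cells were neural. Within the neural class, 511 and 829 cells were neuron-like and 592 and 1005 were brain progenitor-like. The libraries shared 5 cell barcodes. Control cells carried Xist and mutant cells Y-linked transcripts (Xist in 98.8% and 0.107% of cells), and the effects of sex and of genotype cannot be told apart. Tfap2a had 1133 control and 585 mutant UMIs in the mesenchyme, and Tfap2b 3328 and 2091. These were counted at 3′ ends and do not separate a recombined allele from an intact one, so they do not check the deletion.

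The genes lie on 7 chromosomes of the mm10 assembly, and the leucine-rich ones other than Bgn lie near relatives. Lum (chromosome 10, 97565128 to 97572703, plus strand) starts 85.5 kb after Dcn and is followed by Kera and Epyc, which encode the leucine-rich proteoglycans keratocan and epiphycan. Ogn (chromosome 13, 49608046 to 49624501, plus strand) starts 25.6 kb after Omd and 63.6 kb after Aspn, with Ecm2 next to Aspn. Both Ogn and Aspn overlap Cenpp, a centromere protein gene, in the annotation. Fmod (chromosome 1) lies near Prelp and Optc, which are also of this family. Bgn is on the X chromosome (73483602 to 73495933), and the 416 X-linked genes with enough counts had a median log2 ratio of 0.03 between the libraries' mesenchyme. Postn (chromosome 3), Sparc (chromosome 11), Tnc (chromosome 4) and Fn1 (chromosome 1) have no other of the 10 genes near them.

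The 250 bases before a start annotated by RefSeq are shown for Postn, Ogn and Sparc, since these are among the genes that differed in the glia-like cells or the mesenchyme and have a RefSeq promoter window in the table used here (GRCm38.p6, 7 of 10 genes matched). The sequences run 5′ to 3′ towards that start. The Sparc window lies within the gene as GENCODE draws it (chromosome 11, 55394500 to 55423183, minus strand), so its RefSeq start is not the outermost one. Capitals mark matches to GCCNNNGGC, the palindromic core bound by TFAP2 proteins, which reads the same on both strands.
Postn, chr3:54360857-54361106, plus strand: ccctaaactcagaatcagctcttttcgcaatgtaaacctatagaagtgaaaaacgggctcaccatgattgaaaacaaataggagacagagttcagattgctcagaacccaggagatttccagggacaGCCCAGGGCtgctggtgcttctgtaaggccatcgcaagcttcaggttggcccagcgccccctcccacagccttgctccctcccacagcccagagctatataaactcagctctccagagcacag
Ogn, chr13:49607765-49608014, plus strand: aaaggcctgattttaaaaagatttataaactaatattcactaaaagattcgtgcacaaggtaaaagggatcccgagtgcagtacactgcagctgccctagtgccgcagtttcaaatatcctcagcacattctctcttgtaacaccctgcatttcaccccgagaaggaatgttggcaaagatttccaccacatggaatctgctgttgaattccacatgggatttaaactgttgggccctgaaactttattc
Sparc, chr11:55420081-55420330, minus strand: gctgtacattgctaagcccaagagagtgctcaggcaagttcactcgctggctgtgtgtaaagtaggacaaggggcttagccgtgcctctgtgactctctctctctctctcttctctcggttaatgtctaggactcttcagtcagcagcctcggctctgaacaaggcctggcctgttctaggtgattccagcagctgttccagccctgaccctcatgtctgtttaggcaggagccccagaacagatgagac
Postn held 1 match, whose first base lies 123 bases before the start, and it also held TATAAA 26 bases before the start. A further Postn window in the table held no match. The windows of Ogn, Bgn, Fmod, Aspn, Sparc and Tnc held no match to GCCNNNGGC. Of all 32851 windows of the same length, 13.7% held a match, and 1 of the 7 genes did, in 1 of their 9 windows. These matches are letters in a window and not measured binding sites.

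In the mesenchyme as a whole, 4 of the 8 genes with at least 100 UMIs in either library were 1.5-fold or more higher in the mutant and none was 1.5-fold or more lower, where 2.28% of the 11651 genes with as many UMIs were that much higher and 0.91% that much lower. Their median log2 ratio of mutant to control was 0.60, against 0.02 for all 11651 genes. The intervals of 6 of the 8 lay above 0, as did those of 21.5% of all genes. Fmod and Aspn were too rare to be counted among the 8.

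Of the leucine-rich proteoglycans, Ogn, which encodes osteoglycin, had 3.17 CPM (UMIs per 1000000 UMIs of the cells summed) in control mesenchyme and 7.07 in mutant mesenchyme. This was the widest gap of the 8 genes, with a log2 ratio of 1.16 (0.89 to 1.43) from 185 and 310 UMIs. Dcn, for the collagen-binding decorin, had 4.60 and 8.40 CPM, a log2 ratio of 0.87 (0.64 to 1.10). Lum, for lumican, had 59.9 and 101.7 CPM, a log2 ratio of 0.76 (0.70 to 0.83) from 3492 and 4458 UMIs. Bgn, for biglycan, had 39.4 and 51.7, a log2 ratio of 0.39 (0.31 to 0.48), which is less than 1.5-fold. All of these 4 were higher in the mutant library, with Poisson intervals of the levels that did not overlap. Fmod, for fibromodulin, had 10 and 24 UMIs in all, with an interval of the log2 ratio from 0.56 to 2.90, and Aspn, for asporin, 22 and 11. At this depth the Aspn log2 ratio of -0.59 had an interval from -1.78 to 0.52, so no difference was detectable.

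Of the matricellular genes, Postn, for periostin, had 13.4 CPM in control mesenchyme and 21.6 in mutant mesenchyme, a log2 ratio of 0.69 (0.55 to 0.83). Sparc, for a collagen- and calcium-binding protein, had 109.1 and 155.6, a log2 ratio of 0.51 (0.46 to 0.56). Both were higher in the mutant library. Tnc, for tenascin-C, had 4.87 and 4.93 CPM, a log2 ratio of 0.02 (-0.25 to 0.28). Fn1 had 129.6 and 129.7 CPM, a log2 ratio of 0.00 (-0.05 to 0.05) from 7551 and 5685 UMIs. Fibronectin and tenascin-C were thus at like levels in the same cells in which lumican, osteoglycin, decorin and periostin were higher.

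**Figure D1:**
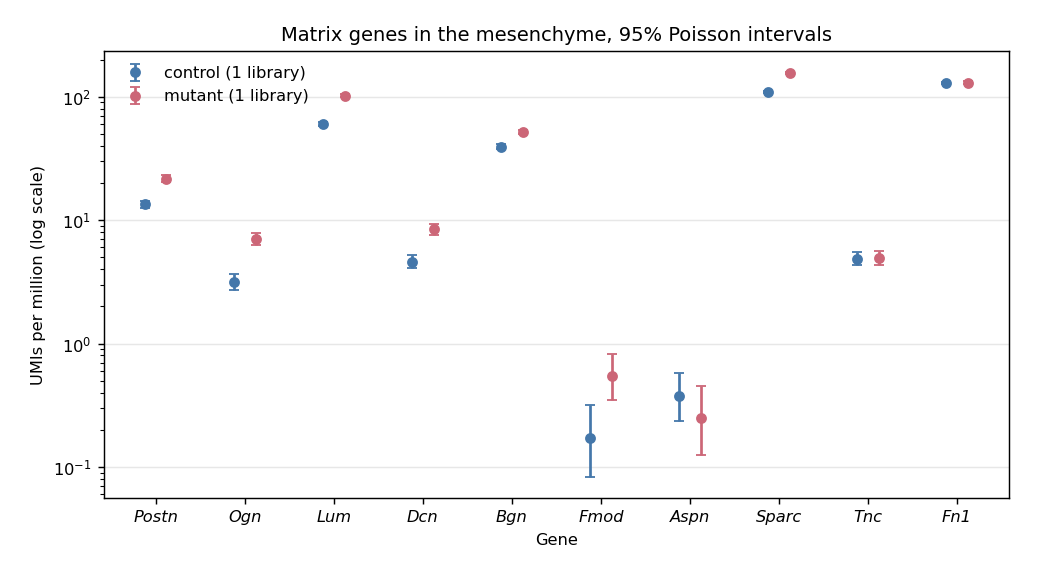
CPM (log axis) of each gene in the mesenchyme of the control library (blue) and the mutant library (red), with 95% Poisson intervals as bars. Postn, Ogn, Lum, Dcn, Bgn and Sparc were higher in the mutant library, Tnc (4.87 and 4.93) and Fn1 (129.6 and 129.7) lay side by side, and Fmod and Aspn were under 1 CPM.

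At matched depth, the shares of cells with Postn, Ogn, Lum, Dcn, Bgn and Sparc were also higher in the mutant mesenchyme, while that of Tnc was not. With each cell thinned to 5000 UMIs, which left out 52 control and 56 mutant cells, 15.3% (14.1 to 16.5) of the control mesenchyme and 22.4% (20.8 to 24.0) of the mutant mesenchyme had Lum. Without thinning the shares were 27.1% and 34.3%. Ogn was found in 1.75% and 4.07% of thinned cells, Dcn in 2.32% and 3.77%, and Postn in 5.61% and 8.57%. Each of these was higher in mutant cells. Neuron-like cells, in which these genes are not known to be made, gave the background: there Lum was found in 0.80% and 1.74%, Ogn in 0.20% and 0.25%, Dcn in 0.40% and in 0 of 803 mutant cells and Postn in 0.20% and 0.87%, at median depths of 9802 and 9844 UMIs before thinning against 14563 and 14465 in the mesenchyme. Sparc was found in 34.4% and 41.7% of thinned mesenchyme cells, and Fn1 in 45.3% and 46.0%. Fmod was found in 0.13% and 0.33% of thinned mesenchyme cells and Aspn in 0.22% and 0.15%, and both in 0 of 498 and 0 of 803 neuron-like cells, which by a limit of 3 counts allows shares of up to 0.602% and 0.374%.

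Mitochondrial transcripts moved with these levels. Cells with over 5% mitochondrial UMIs were 28.3% of control and 39.0% of mutant mesenchyme. The 8 genes with at least 100 UMIs were higher in such cells within each library. The mix of the clusters described below was not held equal in this division. Lum had 48.5 CPM in control cells at or under 5% and 99.2 in those over 5%, and in the mutant library 71.1 and 168.4. Within the cells at or under 5% the log2 ratio of mutant to control was 0.55 (0.47 to 0.64) for Lum, 1.17 (0.77 to 1.57) for Ogn, 0.69 (0.33 to 1.05) for Dcn and 0.59 (0.42 to 0.77) for Postn. Within those over 5% it was 0.76, 0.82, 0.65 and 0.65. Bgn had 0.17 (0.06 to 0.27) at or under 5% and 0.54 (0.40 to 0.68) over it. The direction held on both sides of 5% for these 5 genes, and Lum was below 1.5-fold at or under 5%.

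The mesenchyme was divided further to ask where the genes were expressed and where the libraries differed. A finer clustering, chosen after the clusters had been seen, gave a maxillary-like cluster (883 control and 733 mutant cells, led by Lhx6 and Lhx8), a frontonasal-like cluster (948 and 490, led by Pax7, Gata2 and Alx1), a mandibular-like cluster (823 and 426, led by Hand2) and 3 clusters called by their leading genes. These were an Emx2/Hoxa2 cluster (625 and 527), a Vtn/Tagln/Zic1 cluster (365 and 370) and a Shisa3/Cyp26a1 cluster (73 and 182). A last cluster of 41 and 83 cells was led by neural genes, was called doublets in 70.7% and 68.7% of its cells and is not described further. At the coarser clustering fixed by rule, the frontonasal-like and Vtn/Tagln/Zic1 cells lay mostly in 1 cluster, in which Lum had a log2 ratio of 1.08 and Fn1 of 0.01.

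In the control library, Lum, Ogn, Dcn and Bgn were highest in the Vtn/Tagln/Zic1 cluster, in which Aspn had no UMI. Lum had 365.5 CPM there (346.7 to 384.9), against 70.4 in the frontonasal-like, 51.9 in the Shisa3/Cyp26a1, 32.0 in the maxillary-like, 21.2 in the Emx2/Hoxa2 and 13.6 in the mandibular-like cluster. Ogn had 20.5 there and 10.1 in the Shisa3/Cyp26a1 cluster (7 UMIs), whose intervals overlapped. It had 3.80 in the frontonasal-like cluster and between 0.334 and 1.30 in the other 3. Both genes were lowest in the mandibular-like cells, where Ogn had 4 UMIs in 823 cells. Dcn had 30.8 in the Vtn/Tagln/Zic1 cluster and 4.51 or less elsewhere. Bgn had 127.1 there and 93.6 in the Shisa3/Cyp26a1 cluster, whose intervals overlapped, and between 26.1 and 47.7 in the other 4. Fmod had 6 of its 10 control UMIs in the Vtn/Tagln/Zic1 cells.

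The Vtn/Tagln/Zic1 cells carried markers of several kinds. Of the 7 periocular and meningeal markers none was at 0 in them and their summed level was 515.4 CPM in control cells, against 134.1 in the frontonasal-like cluster. Of the 8 mural (pericyte and smooth muscle) markers 1 was at 0, and their summed level was 194.5 against 45.2. The part of either cell type in the levels of the matrix genes was not tested. Blood markers summed to 3002 CPM in the control cells of this cluster and to 11.2 in the mutant cells.

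The matricellular genes had other patterns. Postn was highest in the mandibular-like cluster, with 29.5 CPM in control cells (26.5 to 32.7). It had 18.7 in the Shisa3/Cyp26a1, 15.5 in the maxillary-like, 10.3 in the Vtn/Tagln/Zic1 and 6.31 in the Emx2/Hoxa2 cluster. It was lowest in the frontonasal-like cluster (4.37). Each neighbouring pair in that order had overlapping intervals, but those of the maxillary-like and frontonasal-like clusters did not overlap. Sparc was also highest in the cluster where those genes were, with 424.9 in the Vtn/Tagln/Zic1 cluster and 250.6 in the Shisa3/Cyp26a1 cluster, and from 54.3 to 118.1 in the other 4. Tnc ran from 3.30 in the frontonasal-like to 17.3 in the Shisa3/Cyp26a1 cluster, with intervals that overlapped between neighbours. Fn1 was nearly even over the mesenchyme, between 115.6 and 138.2 CPM in the 6 control clusters. Among the named clusters, Postn was highest in the mandibular-like and Lum in the frontonasal-like cells.

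**Figure D2:**
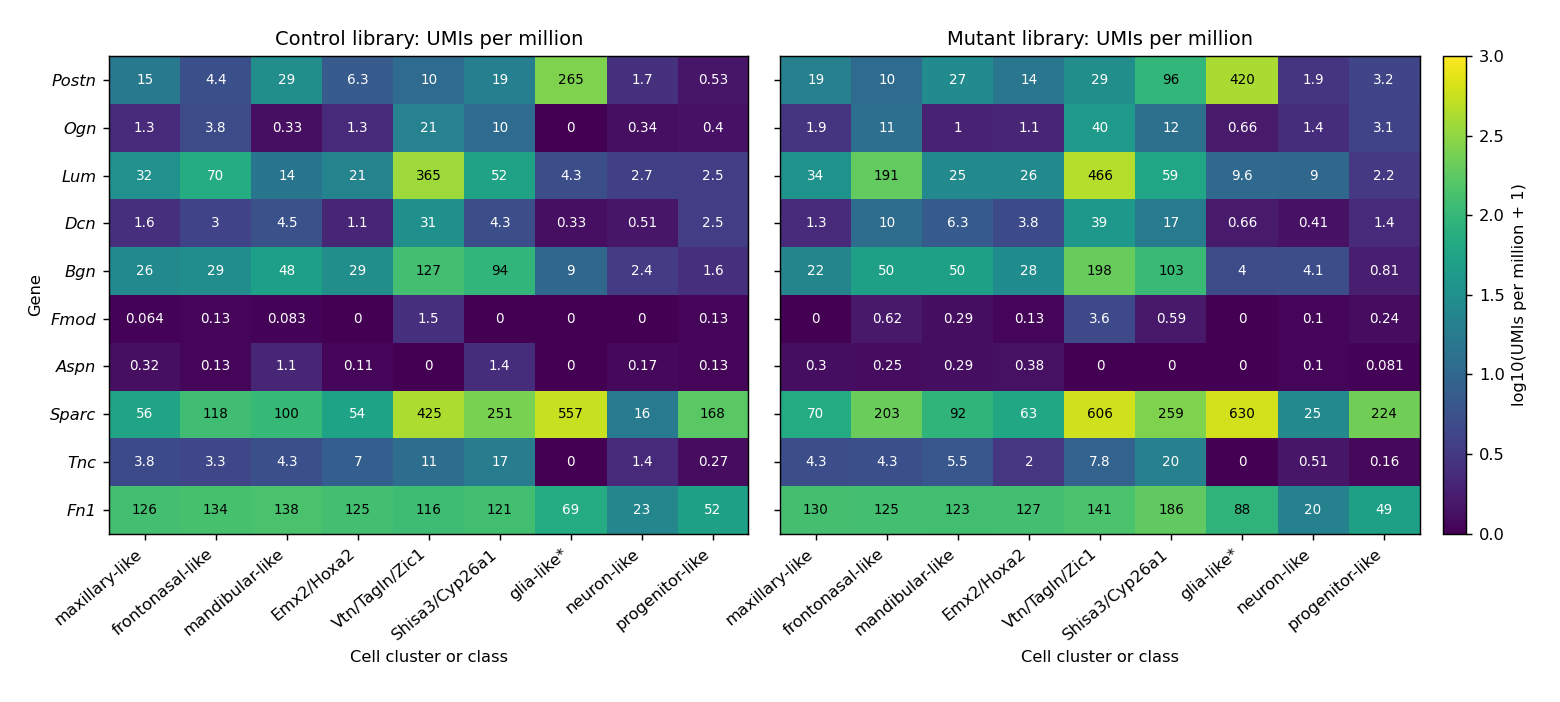
CPM (numbers in the cells, colour on a log10 scale with 1 added) of the 10 genes in the 6 mesenchyme clusters and in the glia-like, neuron-like and brain progenitor-like cells of each library, where the star marks glia-like cells with under 10 neuron-marker UMIs. Lum, Dcn, Bgn and Ogn were highest in the Vtn/Tagln/Zic1 cluster and Postn in the glia-like cells. Fn1 varied little over the control mesenchyme, while in the mutant library it was highest in the Shisa3/Cyp26a1 cluster (186.3).

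In the frontonasal-like cluster, of the 4 genes with at least 100 UMIs there, Lum, Bgn and Sparc were 1.5-fold or more higher in the mutant, where 1.95% of all genes were. Lum had 70.4 CPM in control and 191.2 in mutant cells, a log2 ratio of 1.44 (1.33 to 1.55). Sparc had 118.1 and 203.1, a log2 ratio of 0.78 (0.69 to 0.88), and Bgn 28.8 and 49.9, a log2 ratio of 0.79 (0.59 to 0.99). Among the genes with fewer UMIs there, Ogn, Dcn and Postn were also higher. Ogn had 60 and 91 UMIs with a log2 ratio of 1.57 (1.09 to 2.07), Dcn 48 and 84 with 1.78 (1.25 to 2.32) and Postn 69 and 82 with 1.22 (0.74 to 1.70). Tnc had 52 and 35 UMIs with 0.40 (-0.26 to 1.04), and the intervals of Fmod and Aspn also held 0. Fn1 had 133.8 and 124.7 CPM, a log2 ratio of -0.10 (-0.21 to 0.01). After thinning, 187 of 937 control cells and 193 of 485 mutant ones had Lum (17.4 to 22.7% and 35.4 to 44.3%).

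Marker levels moved with the frontonasal-like differences. The summed frontonasal markers had 905.5 CPM in control and 683.7 in mutant cells of the cluster, and the summed periocular and meningeal markers 134.1 and 243.2. When the cells were divided by their periocular and meningeal marker UMIs, those with under 3 (700 control and 292 mutant cells) gave Lum a log2 ratio of 1.57 (1.39 to 1.75), and those with 3 or more (248 and 198 cells) gave 0.92 (0.78 to 1.07). Sparc had 0.71 and 0.50 in the same divisions, of which 0.50 (0.37 to 0.63) is less than 1.5-fold, and Dcn had 2.67 and 0.97. Bgn had 0.41 (0.11 to 0.70) under 3 marker UMIs, which is less than 1.5-fold, and 0.86 (0.57 to 1.15) with 3 or more. In the frontonasal-like cells at or under 5% mitochondrial UMIs Bgn also fell short of 1.5-fold, with 0.49 (0.23 to 0.74) against 1.10 (0.74 to 1.46) over 5%. These genes were higher in the mutant library on both sides of each division.

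In the Vtn/Tagln/Zic1 cluster, Lum, Ogn, Dcn, Bgn and Sparc were already highest in the control library, but Postn and Fn1 were not. Here 3 of 7 genes with at least 100 UMIs were 1.5-fold or more higher, against 2.78% of all genes. Postn had 10.3 and 29.1 CPM, a log2 ratio of 1.51 (0.97 to 2.07). Ogn had 20.5 and 40.1, a log2 ratio of 0.97 (0.57 to 1.37), and Bgn 127.1 and 197.9, a log2 ratio of 0.64 (0.47 to 0.80). Sparc had 424.9 and 606.5, Lum 365.5 and 465.8 and Dcn 30.8 and 39.3, with log2 ratios of 0.51, 0.35 and 0.35. The interval of Dcn just reached 0. Skeletal muscle markers summed to 6.41 and 36.1 CPM in this cluster, and their part in these values was not tested.

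The maxillary-like and mandibular-like clusters differed less. None of 5 genes in the maxillary-like cluster was 1.5-fold or more higher, where 0.688% of all genes were, and Lum had 32.0 and 33.8 CPM, a log2 ratio of 0.08 (-0.11 to 0.27). Postn had 0.32 (0.06 to 0.58) and Sparc 0.32 (0.18 to 0.45), both with intervals above 0. Bgn was lower in the mutant maxillary-like cells, with 26.1 and 22.1 CPM and a log2 ratio of -0.24 (-0.46 to -0.02), although in the cells at or under 5% mitochondrial UMIs the interval held 0 (-0.17, -0.42 to 0.07). In the mandibular-like cluster 1 of 5 genes passed, against 0.603% of all genes. That gene was Lum, with 13.6 and 25.3 CPM and a log2 ratio of 0.90 (0.58 to 1.21). In the cells at or under 5% mitochondrial UMIs Lum was below 1.5-fold, with 0.51 (0.08 to 0.94), against 1.35 (0.86 to 1.85) over 5%. Postn, highest in the control library in this cluster, had 29.5 and 26.9 CPM, a log2 ratio of -0.13 (-0.39 to 0.13), with 0.16 (-0.18 to 0.49) at or under 5% and -0.60 (-1.04 to -0.17) over it. Here Fn1 had 138.2 and 123.5, a log2 ratio of -0.16 (-0.28 to -0.04).

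In the Emx2/Hoxa2 cluster, 1 of 5 genes was 1.5-fold or more higher, against 1.21% of all genes. It was Postn, with 6.31 and 14.1 CPM and a log2 ratio of 1.16 (0.69 to 1.65). Tnc went the other way there: it had 64 control and 16 mutant UMIs, or 6.96 and 2.00 CPM, a log2 ratio of -1.80 (-2.69 to -0.99). It was below the 100 UMIs asked for and is named for its size. In the Shisa3/Cyp26a1 cluster 2 of 5 genes passed, against 2.85% of all genes. Postn had 18.7 and 96.4 CPM, a log2 ratio of 2.36 (1.55 to 3.30), with 13 UMIs in the control and 163 in the mutant cells. After thinning, 5.63% of the control cells and 32.0% of the mutant ones had it. Fn1 had 121.0 and 186.3, a log2 ratio of 0.62 (0.27 to 0.99). Lum, Bgn and Sparc had ratios between 0.05 and 0.19 there, with intervals that held 0. The second arch markers summed to 161.3 and 36.7 CPM in this cluster, and their part in the Postn value was not tested.

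**Figure D3:**
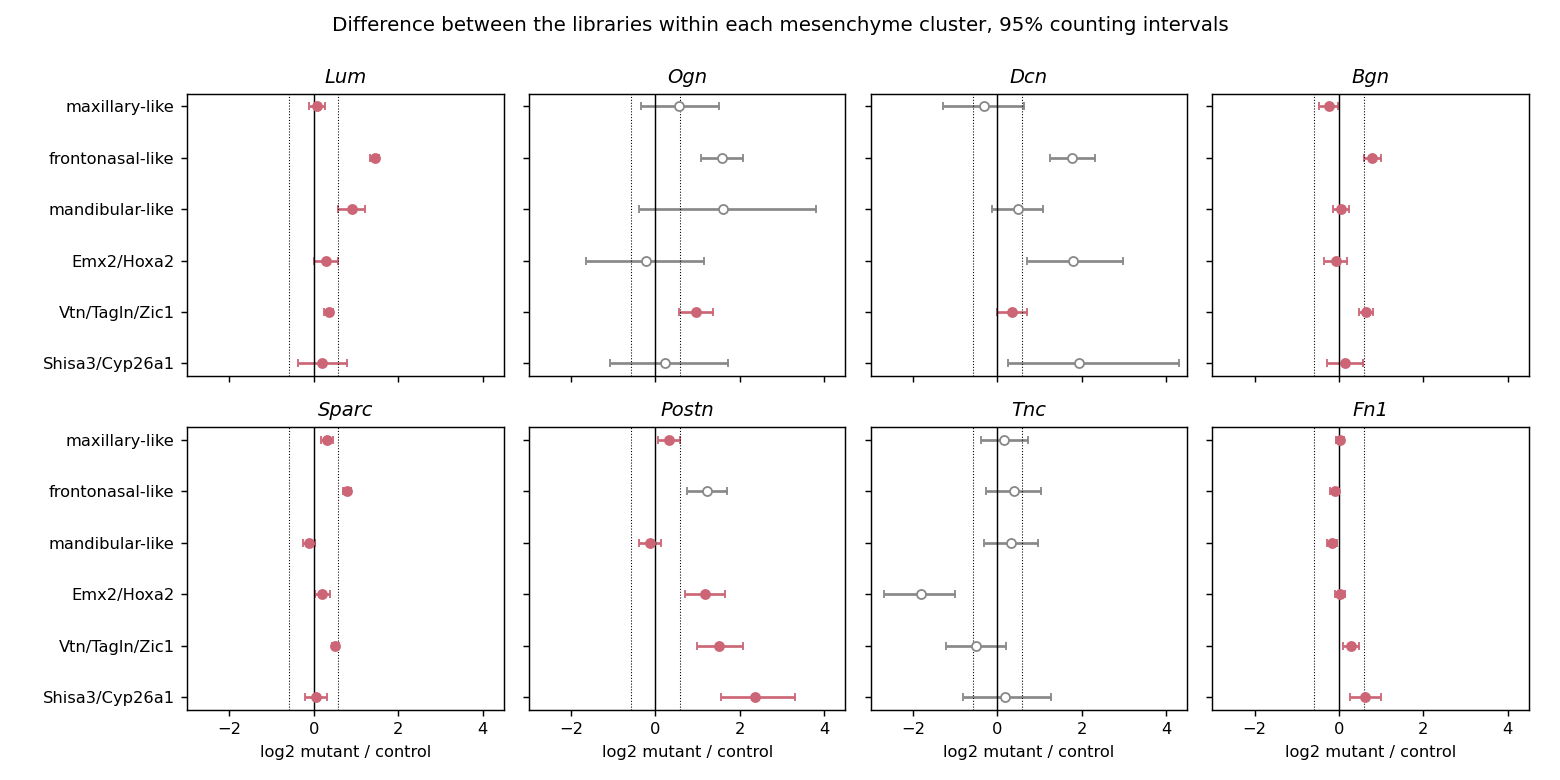
Log2 ratio of mutant to control for 8 genes in each of the 6 mesenchyme clusters, with 95% counting intervals. Filled points have at least 100 UMIs in either library, open grey points fewer, and dotted lines mark 1.5-fold. Lum, Bgn and Sparc lay right of the dotted line in the frontonasal-like cluster, Postn in the Emx2/Hoxa2, Vtn/Tagln/Zic1 and Shisa3/Cyp26a1 clusters, and Fn1 within 1.5-fold in all but the last of these.

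The mix of clusters differed between the libraries, and the ratios were recomputed with the clusters weighted equally in both. With the 7 finer clusters held at equal shares the log2 ratio was 0.71 for Lum against 0.76 as measured, 1.02 for Ogn against 1.16, 0.75 for Dcn against 0.87, 0.62 for Postn against 0.69 and 0.44 for Sparc against 0.51. The coarser clusters fixed by rule, held at equal shares, gave 0.90, 1.31, 1.01, 0.73 and 0.62 in the same order of genes. These were above the measured values. All 5 genes stayed higher in the mutant library with both clusterings. Without the neural-gene-led cluster the values were 0.77, 1.20, 0.90, 0.69 and 0.50.

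The genes overlapped in the same cells to different degrees. Of the control mesenchyme cells with a Dcn UMI after thinning, 67.4% also had Lum, where 14.0% of the remaining cells did. In the mutant library the values were 68.3% and 20.6%. Cells with Ogn had Lum in 41.5% and Sparc in 81.5% of cases in the control, against 14.8% and 33.6% of the rest. Ogn was found in 3.5% of the 86 control cells with Dcn, against 1.71% of the rest. In the mutant library it was found in 18.3% of the 104 cells with Dcn, against 3.51% of the rest. Ogn itself was in more of the thinned mutant cells (4.07% against 1.75% in the control). Of the cells with Postn, 14.9% had Lum in the control library against 15.3% of the rest, and 18.6% against 22.7% in the mutant library. Sparc was found in 46.6% of control cells with Postn against 33.7% of the rest and in 57.2% against 40.3% in the mutant library, and Tnc in 7.21% against 2.49% and in 3.81% against 1.95%. These shares describe cells of 1 library each.

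Outside the mesenchyme, Postn and Sparc were above their mesenchyme levels in the glia-like cells. In the glia-like class Postn had 158.8 CPM in control and 390.1 in mutant cells, a log2 ratio of 1.30 (1.17 to 1.43), and Sparc had 382.9 and 596.5, a log2 ratio of 0.64 (0.55 to 0.73). Thus 2 of 3 genes with at least 100 UMIs were 1.5-fold or more higher, where 4.49% of all genes in this class were. The class was not the same mixture in both libraries, however. Neuron markers summed to 2492 CPM in its control cells and 385.2 in its mutant cells, and 103 of 260 control but 12 of 201 mutant cells had 10 or more neuron-marker UMIs.

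In the glia-like cells with under 10 neuron-marker UMIs, 157 in the control and 189 in the mutant library, the differences were smaller. Postn had 264.7 and 420.4 CPM there, a log2 ratio of 0.67 (0.54 to 0.80). Sparc had 556.9 and 630.1, a log2 ratio of 0.18 (0.08 to 0.27), and Fn1 68.7 and 88.0, a log2 ratio of 0.36 (0.09 to 0.63). Only Postn of these 3 was 1.5-fold or more higher, where 2.88% of all genes were. After thinning, 60.3% (52.1 to 68.0) of the control cells and 75.5% (68.7 to 81.5) of the mutant ones had Postn. In the control cells with 10 or more neuron-marker UMIs it had only 5 UMIs. With these cells left out, the Sparc ratio was 0.18 in place of 0.64 and the Postn ratio 0.67 in place of 1.30.

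**Figure D4:**
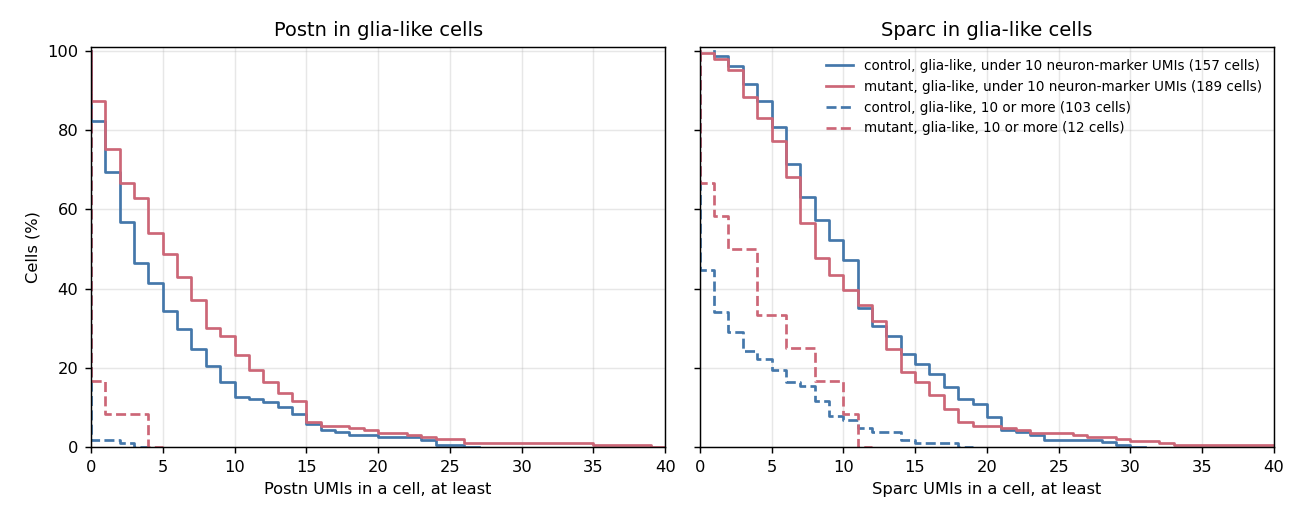
Percent of glia-like cells (vertical axis) with at least a given number of Postn or Sparc UMIs (horizontal axis, not thinned) in the control (blue) and mutant (red) library, with solid lines for cells under 10 neuron-marker UMIs (157 and 189 cells) and dashed lines for the others (103 and 12). The solid mutant line lay above the control line for Postn through most of the range, while the Sparc lines crossed.

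The leucine-rich proteoglycan genes and Tnc were scarce in the glia-like cells. Fmod, Aspn and Tnc had no UMI in the 157 control and 189 mutant cells under the neuron-marker limit, which by the same limit of 3 counts allows shares of up to 1.91% and 1.59% of cells with a UMI. Lum had 13 and 29 UMIs and Bgn 27 and 12, so Lum was at 7.20% of its control mesenchyme level and Bgn at 22.7%. On these few UMIs the log2 ratio of mutant to control was 1.15 (0.16 to 2.22) for Lum. For Bgn it was -1.17 (-2.29 to -0.14), opposite in direction to the mesenchyme. Postn in the same control cells was at 1975% of its mesenchyme level and Sparc at 510.5%. Postn was also among the 10 leading genes of the glia-like class.

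In the neural cells Sparc and Fn1 alone were abundant. Brain progenitor-like cells had 167.7 CPM of Sparc in the control and 224.0 in the mutant (log2 ratio 0.42, 0.32 to 0.51), and neuron-like cells 16.4 and 24.7. Fn1 had 51.8 and 49.5 in the progenitor-like and 23.2 and 19.7 in the neuron-like cells. Sparc was higher in the progenitor-like than in the neuron-like cells of both libraries. Ogn had 3 UMIs in 592 control and 38 in 1005 mutant progenitor-like cells, or 0.399 and 3.06 CPM, and Postn 4 and 40. These Postn UMIs lay in 2 control and 12 mutant cells, and 1 mutant cell alone held 20. With progenitor-like cells thinned to 5000 UMIs, only 1 of 582 control cells and 3 of 977 mutant ones had Postn. The intervals of these shares overlapped (0.004 to 0.95% and 0.06 to 0.89%). Over the whole neural class Ogn had 5 UMIs in 5 control cells and 56 in 30 mutant cells, with at most 8 in 1 cell. The neural class held 44 control and 57 mutant cells with mesenchyme markers and few UMIs (medians of 1064 and 1990), and of the control Lum UMIs in this class 12 of 62 lay in them.

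Related genes from lists of the same pathways were read in the mesenchyme in the same way, beside the median of 0.02 over all genes. Of all 11651 genes with enough UMIs, 2.28% were 1.5-fold or more higher, 0.91% were that much lower and 21.5% had intervals above 0. Of the 17 leucine-rich proteoglycan genes, 5 had at least 100 UMIs, with 3 that were 1.5-fold higher (Dcn, Lum and Ogn), none lower and a median of 0.76. The only one of these that is not among the 10 was Tsku, with 0.12. The neighbours Kera, Epyc, Omd, Ecm2, Prelp and Optc had between 5 and 42 UMIs in either library. Of 26 matricellular genes, 16 had enough UMIs, 3 were higher (Postn, Sparcl1 and Spp1), none lower, and the median was 0.32. Spp1, for osteopontin, had 44 and 174 UMIs and a log2 ratio of 2.39 (1.91 to 2.91), and Sparcl1, a relative of Sparc, had 13.0 and 21.4 CPM.

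Of 20 genes of fibronectin, elastic fibres and associated matrix such as Vcan and Hapln1, 17 had enough UMIs, none was 1.5-fold higher and 1 was lower, and the median was 0.11. The lower one was Hapln1, which links hyaluronan to proteoglycans, with 5.97 and 3.04 CPM and a log2 ratio of -0.98. Of 13 fibrillar and associated collagens, 11 had enough UMIs, Col6a1 and Col6a2 were higher (0.73 and 0.72), none was lower, and the median was 0.25. All 11 had intervals above 0, as did 21.5% of all genes. Of 26 genes that process collagen, 22 had enough UMIs, with a median of 0.24, and 3 were higher: Lox, which crosslinks collagen (0.82), and the hydroxylases P4ha1 (0.68) and Plod1 (0.66). Adamts2, which trims procollagen, was lower (-0.59). Of 22 matrix receptors, 15 had enough UMIs, with Itga1 (1.13) and Ddr1 (0.72) higher, none lower and a median of 0.10. Of 19 skeletal and connective tissue regulators, 17 had enough UMIs, none passed in either direction, and the median was 0.05.

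Over the 7 control groups of at least 50 cells (glia-like, neuron-like, brain progenitor-like and 4 mesenchyme clusters of the coarser clustering), the genes whose levels followed each member most closely were found among 11584 genes by Pearson's r of log2 CPM plus 1. These are descriptions over few points that share 1 library. Fn1 was closest to Fbln1 (0.998), Tpd52l1 and Mmp2. Bgn was closest to Cd248 (0.996), Neurl2 and Tgfbi, and Tnc to Rps6ka1 (0.994), Pcdhgc5 and Ccn4. Lum was closest to Usp46 (0.984), Cyp27a1 and Jaml, Ogn to Syt12 (0.976), Tbx18 and Nectin2, and Dcn to Adamtsl1 (0.961), P3h2 and Scube1. Postn was closest to Inf2 (0.978), Mef2c and Elac2, and Sparc to Gm26737 (0.975), Dym and Kcnk5. Aspn, closest to Rgs5 (0.963), Dlk1 and Rps6ka3, and Fmod, closest to Hpgd (0.976), Hba-x and Hbb-y, rest on few UMIs. Most of these partners depended on the clustering. Over the 9 control groups made with the finer clusters, Bgn and Ogn kept all their named genes. None of those named above returned for Lum (closest to Cldn11, 0.984), Dcn, Sparc, Fn1 or Aspn. Among the members themselves, over the 7 groups, Bgn and Fn1 had an r of 0.90 and Lum and Ogn of 0.88, while Postn and Lum had -0.02.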

How the data were processed

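The deposited files were UMI counts per gene and cell, made by the authors from 10x Genomics 3′ libraries with Cell Ranger (6.0.0 per the file headers) on mm10, and they were not normalized. Barcodes with 200 to 7500 genes and at most 10% mitochondrial UMIs were kept (523 control and 476 mutant barcodes were removed). The libraries held 83542433 and 79206144 UMIs, and the mesenchyme 58285953 and 43826258 after filtering. Libraries were integrated and clustered with Seurat 5.3.0 in R 4.3.3 (2000 variable genes, 30 dimensions, resolution 0.05 for classes), without the 10 members and the related matrix genes of the lists. The mesenchyme was clustered again with 20 dimensions at resolution 0.15, the lowest tried that gave 5 clusters of at least 100 cells, and at 0.3, which was chosen after the clusters were seen. A cluster was named from marker lists when at least 3 markers were higher, their mean log2 difference was at least 0.25 and at least 0.25 above that of any other list, and its 10 leading genes did not favour another list. Doublets were called with Scrublet in scanpy 1.11.5 (1.65% and 3.06% of cells) and kept. Positions came from GENCODE M21, which held 32158 of the 32285 gene IDs.

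UMIs were summed per library and group of cells and divided by the group's total (CPM). Ratios have exact conditional binomial intervals, levels Poisson and shares Clopper-Pearson intervals, all at 95% and for counting error only. Where no cell had a UMI, the limit given is 3 counts over the number of cells. Since each group was 1 library there was no test and no p-value, and genes were counted when 1.5-fold or more apart with at least 100 UMIs in either library. The 10 members, the rules and the gene lists were chosen with earlier results of these data known. All members were named, and from each list genes past 1.5-fold, at most 6, with the 3 genes most like each member. The interval and the 1.5-fold call were tested on simulated counts. The scalings of edgeR 4.0.16 and DESeq2 1.42.0 served as alternatives.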

Additional observations from a re-analysis of the deposited data

Results flagged for a closer look

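Bgn differed in direction between mesenchyme clusters: its log2 ratio of mutant to control was -0.24 in the maxillary-like and 0.79 in the frontonasal-like cluster, with intervals that did not hold 0, although the maxillary-like interval held 0 in cells at or under 5% mitochondrial UMIs. Fn1 had -0.16 in the mandibular-like and 0.62 in the Shisa3/Cyp26a1 cluster, also with intervals that did not hold 0. The differences between these clusters were not tested, since each library was sampled once.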

How the results depend on the processing

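The median log2 ratio of the 8 genes in the mesenchyme was 0.60. The medians of the 8 genes' own lower and upper interval ends were 0.51 and 0.69, which do not form an interval of the median itself. The median stayed between these ends under TMM and DESeq2 scaling, equal weight per cell, thinning, removal of doublets and equal cluster shares. It also did so under other class clusterings and removal of the 10 top cells of each gene. The same held for the alternatives chosen after seeing the data (without the neural-gene-led cluster, and equal shares of the finer clusters). It moved to 0.46 when cells with over 5% mitochondrial UMIs were removed. The count of genes 1.5-fold or more higher was 4 of 8, moved to 2 of the 5 genes with at least 500 UMIs (Lum and Postn) and to 1 at a threshold of 2-fold (Ogn), and was between 3 and 5 under the other alternatives. Over all alternatives the mesenchyme log2 ratio ran from 0.17 to 0.58 for Bgn, from 0.37 to 0.62 for Sparc and from -0.34 to 0.04 for Tnc. The division of glia-like cells by neuron markers was also chosen after seeing the data, as was that of frontonasal-like cells. The other glia-like division, by more glia-marker than neuron-marker UMIs, gave 0.81 for Postn and 0.21 for Sparc. No paired analysis was possible because each group was 1 library. With 1 library of 2 pooled embryos in each group, differences between embryos cannot be told apart from those of genotype, and genes under 100 UMIs were limited by depth.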

Other observations

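Some other matrix genes in the glia-like cells with under 10 neuron-marker UMIs also differed. Of all genes with enough UMIs there, 2.88% were 1.5-fold or more higher. Of 9 genes of fibronectin, elastic fibres and associated matrix, 3 were that much higher and 1 lower, with a median log2 ratio of 0.37. Of 6 collagens, 1 was higher and 1 lower (median 0.21), and of 6 matrix receptors 1 was higher (median 0.08). Vcan, for the large proteoglycan versican, had 191.4 CPM in control and 368.2 in mutant cells, a log2 ratio of 0.94. Mfap2 and Mfap4, which belong to elastic microfibrils, had 0.71 and 0.90, Col2a1 had 0.85 and Itga4, an integrin chain that binds fibronectin, 0.74. Col5a2 and Emilin1 were lower, with -0.74 and -0.60. These cells came from 1 library of each genotype.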
